A study of Mus musculus with 6 samples.

Results

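The endothelin system genes described here are the endothelin ligand genes Edn1 and Edn3, the converting enzyme genes Ece1 and Ece2, and the receptor genes Ednra and Ednrb. They were taken by gene symbol, and all 6 were found among the 19131 genes of each table and passed the filter on low counts that left 15035 genes. Endothelins are short peptides that cells secrete as larger precursors and that act on neighbouring cells. Endothelin-converting enzymes cut the inactive precursor, and the released peptide binds G protein-coupled receptors, of which the endothelin A receptor prefers endothelin-1 and the endothelin B receptor binds endothelin-1 and endothelin-3 alike. In skin, endothelin-1 comes from blood vessels and keratinocytes and constricts vessels through smooth muscle, while endothelin-3 and the B receptor are needed for neural crest cells to populate the skin as melanocytes.

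The series concerns endothelial TIE1, a receptor tyrosine kinase related to the angiopoietin receptor TIE2, and its part in vessel sprouting and vein assembly. Bulk RNA-seq was made from skin of mouse embryos at embryonic day 17.5, 3 libraries from Tie1 knockout embryos (skin_Tie1ECDKO) and 3 from controls (skin_Tie1ECDWT), all on the C57BL/6N strain background and with no treatment named. The labels do not explain the letters ECD, do not say which cells lost the gene, and do not say whether libraries came from separate embryos or litters, so the p-values below measure only the spread between these samples. The libraries held 19826856 to 20591164 estimated reads.

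Tie1 stood at 4.33, 2.63 and 2.26 CPM (reads scaled to a common depth, with TMM factors) in the knockout and at 58.6, 50.7 and 60.0 CPM in the control libraries, so every library matched its label. Markers of keratinocytes, dermal fibroblasts, vessels, melanocytes and skeletal muscle were all present, and no pair of libraries agreed within sampling noise (9.95 to 51.3 times the sampling variance). The content of several marker lists varied between libraries. Control 1 had the highest summed erythroid level, 16080 CPM against 6666 to 8945 CPM in the other 5 libraries. The hair follicle score, averaged as log2 CPM over 12 follicle genes, was 1.5 in knockout 1 and 2.10 in control 1 against 3.87 to 4.88 in the other 4 libraries. The posterior Hox score, over 7 tested genes that mark position along the body, was 2.73 to 3.06 in the knockout and 2.86, 2.05 and 1.55 in control libraries. Fits with each score as a covariate and without both replicate 1 libraries are given where they matter.

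No endothelin gene passed the test for a change after loss of Tie1. Of the 6 members 0 were called by edgeR's quasi-likelihood test at an adjusted p under 0.05, against 24 of all 15035 genes (0.160%, with 0.0865% higher and 0.0732% lower, and 1 to 11 genes with 1 library left out, the fewest without knockout 2), and their adjusted p-values ran from 0.620 to 0.977. At an unadjusted p under 0.05 there were 2 members, Ednra and Ednrb, both higher, where the share over all genes was 7.42% in either direction with 4.08% higher and 3.35% lower. DESeq2 and limma-voom also called 0 of the 6, with the same 2 members at an unadjusted p under 0.05. The members' log2 fold changes were positive for 5 and negative for 1, with a median of 0.10 beside 0.0038 for all genes tested. Since each value mixes all cells of the skin, fewer cells of a type and less RNA per cell cannot be told apart.

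**Figure D1:**
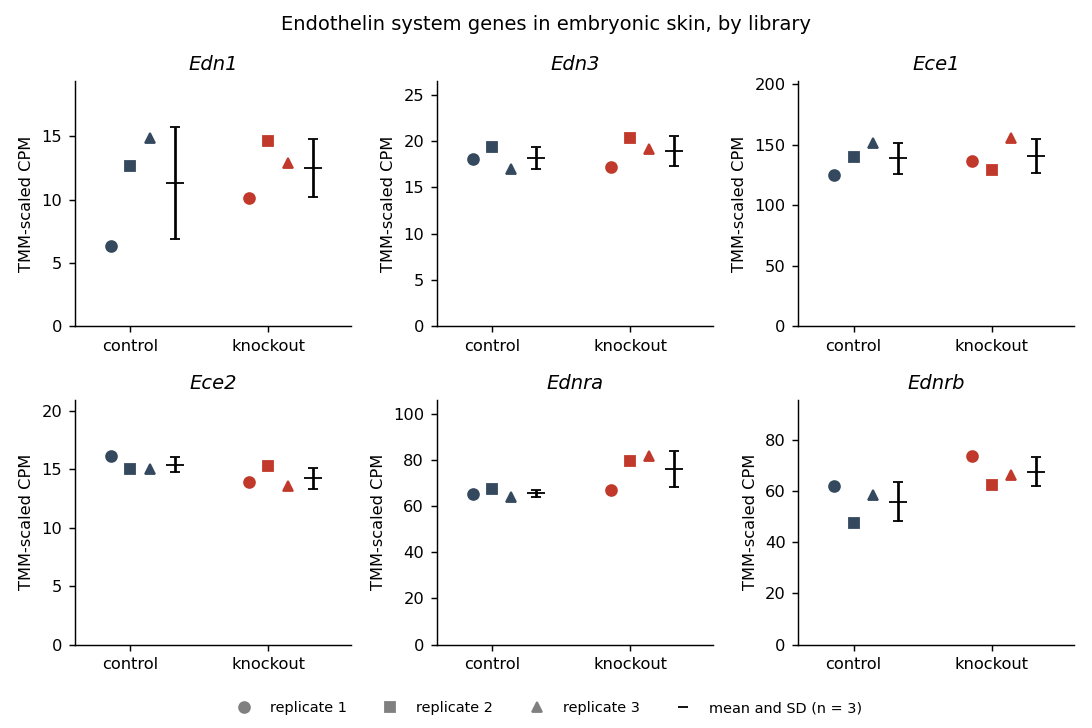
TMM-scaled CPM of each endothelin gene in the 3 control and 3 knockout libraries, with the mean and SD beside each group. Only for Ednrb does every knockout library (62.4 to 73.6 CPM) lie above every control library (47.3 to 62.0 CPM), and control 1 stands lowest for Edn1 at 6.36 CPM.

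Levels can be compared between genes only per transcript length, for which CPM was divided by the length in kilobases (kb) of the longest protein-coding transcript in GENCODE M21. Ece1 was the most abundant member, at 29.1 ± 2.89 CPM per kb in knockout and 28.8 ± 2.69 CPM per kb in control skin (SD, n = 3). Ednra followed at 21.0 ± 2.17 and 18.1 ± 0.443 CPM per kb, and Ednrb at 16.4 ± 1.38 and 13.6 ± 1.85 CPM per kb. Ednra exceeded Ednrb in 6 of 6 libraries, but this order rests on the transcript chosen: with the shortest coding transcript of Ednrb, of 2669 bases, its control level would be 20.9 CPM per kb. The ligand genes came next, Edn3 at 6.07 ± 0.511 and 5.83 ± 0.382 and Edn1 at 5.86 ± 1.07 and 5.28 ± 2.07 CPM per kb, and their ranges overlapped, with Edn3 above Edn1 in 4 of 6 libraries. On the same lengths Ece2 was the lowest member, at 4.13 ± 0.261 CPM per kb in knockout and 4.46 ± 0.188 CPM per kb in control, and was below Edn1 in 5 of 6 libraries. The other ranks also depend on the transcript, since the shortest coding transcripts would place the control levels of Edn3 at 24.9 and of Ece2 at 6.17 CPM per kb.

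Edn1 encodes the precursor of endothelin-1, the vasoconstrictor of vessel walls (gene 13614, chromosome 13, 42301476 to 42307990, plus strand, GRCm38.p6). It stood at 10.1, 14.6 and 12.9 CPM in knockout 1, 2 and 3 and at 6.36, 12.6 and 14.9 CPM in control 1, 2 and 3. The groups overlapped, and within each group the replicate 1 library was the lowest. The means were 12.5 ± 2.28 CPM in the knockout and 11.3 ± 4.43 CPM in the control (SD, n = 3), and the log2 fold change was 0.15 (SE 0.31, 95% interval −0.61 to 0.91, adjusted p = 0.938 by edgeR). That interval spans 0.656-fold to 1.87-fold, the widest of the 6 members on the log2 scale, so a moderate change in either direction was not detectable. The spread was larger than counting error alone, since the lowest library held 129 reads, which gives a counting error of 8.80%, while the control libraries varied by 39.2% (coefficient of variation). Without control 1 the log2 fold change was −0.14, and with the posterior Hox score as a covariate it was 0.87 with an edgeR adjusted p of 0.554, within adjusted p-values of 0.554 to 0.9998 over 17 alternatives.

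Edn1 is known as a target of the hypoxia-inducible factor, and ACGTG is a form of that factor's core binding letters. Other forms were not searched. RefSeq promoter windows of 300 bases (250 before a transcript's start and 50 from it on, GRCm38.p6) were searched for ACGTG on both strands, and 19.6% of all 32851 windows and 21.8% of all 27025 genes held it. All 6 members had a window, 9 windows in all because Ece1 has several starts, and 3 windows of 3 members held the letters. These are shown because they are the places where the hypoxia list described next could be read against the sequence, each as 30 bases 5′ to 3′ on the gene's strand, with ACGTG or its reverse complement CACGT in capitals.
Edn1, chr13:42301485-42301514, plus strand: tatctctggctgCACGTtgcctgtgggtga
Ece1, chr4:137913456-137913485, plus strand: gcctgggagaggCACGTGccccgccggcca
Ece2, chr16:20629747-20629776, plus strand: cggttgcgcggaACGTGgtctgggcgcgga
The Edn1 match begins at base 22 counted from the annotated start. In Ece1 the match lies 90 bases before a downstream start and reads the same on both strands, so that 2 overlapping matches make up its 6 capitals, and in Ece2 it lies 92 bases before the start. No match was found in the windows of Edn3, Ednra and Ednrb, which says only that these letters are not in those windows.

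The hypoxia list was set beside Edn1 for that reason. Of its 13 tested genes 11 were higher at an unadjusted p under 0.05, as were 4.08% of all genes. None passed the adjusted threshold, and the list's median log2 fold change was 0.53. Adm, the vasodilator adrenomedullin, named after its values were seen, stood at 23.0 ± 7.99 CPM in knockout skin against 5.58 ± 2.22 CPM in control skin (SD, n = 3, log2 fold change 2.04, SE 0.36, adjusted p = 0.156 by edgeR). Pgk1, a glycolytic enzyme, stood at 0.53 on the log2 scale (SE 0.083, adjusted p = 0.0847 by edgeR). Pdk1, a kinase that limits the use of pyruvate in mitochondria, stood at 0.49 (SE 0.082, adjusted p = 0.103 by edgeR). The groups did not overlap for 11 of these 13 genes (13.8% of all genes, 7.03% higher and 6.78% lower), while those of Edn1 did. Whether Edn1 differs from the list was not tested.

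Edn3 encodes the precursor of endothelin-3, the ligand that melanocyte precursors need (gene 13616, chromosome 2, 174760619 to 174784042, plus strand). Its levels were 17.2, 20.4 and 19.1 CPM in the knockout and 18.1, 19.4 and 17.0 CPM in the control libraries. The groups interleaved, and the library values differed little from each other. The log2 fold change was 0.057 (SE 0.099, adjusted p = 0.924 by edgeR), with a 95% interval of −0.18 to 0.29 that corresponds to 0.885-fold to 1.22-fold. Relative to 12 genes of the dermal condensate and papilla, the mesenchyme at the base of the hair follicle, Edn3 stood at −0.21 ± 0.10 in knockout and −0.35 ± 0.21 in control on the log2 CPM scale (SD, n = 3), a difference of 0.14 (exact two-sided permutation p = 0.4) that was 0.018 without control 3 and 0.23 without control 1. None of these 12 genes had an unadjusted p under 0.05, and their median log2 fold change was −0.018. The summed level of the list was 409 to 468 CPM in the knockout and 401 to 454 CPM in the control libraries.

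The third ligand gene, Edn2, is no member of the set and was in the pathway list. It stood at 5.05, 5.75 and 3.78 CPM in the knockout and 2.52, 4.95 and 4.44 CPM in the control libraries, with 51 to 116 reads per library. The groups overlapped, and as for Edn1 the lowest value was that of control 1. The fitted log2 fold change was 0.29 (SE 0.28, adjusted p = 0.845 by edgeR). It was 0.049 without control 1, 0.47 without control 2, 0.020 without both replicate 1 libraries and 0.83 with the posterior Hox score, within adjusted p-values of 0.567 to 0.9998 over 17 alternatives.

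Ece1 encodes the membrane metalloprotease that does most of the conversion of endothelin precursors (gene 230857, chromosome 4, 137862237 to 137965229, plus strand). It was measured with the most reads, 2539 to 3177 per library, and stood at 136, 129 and 156 CPM in the knockout and 125, 140 and 151 CPM in the control libraries. The groups covered nearly the same range. The log2 fold change was 0.018 (SE 0.099, 95% interval −0.21 to 0.25, adjusted p = 0.977 by edgeR), and changes beyond 0.863-fold or 1.19-fold lie outside the interval. Against the pan-endothelial list, Ece1 stood at 1.6 ± 0.078 in knockout and 1.57 ± 0.20 in control (mean log2 CPM difference, SD, n = 3), a difference of 0.030 (exact two-sided permutation p = 0.9).

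Ece2, a related protease of intracellular compartments, had 269 to 327 reads per library (gene 107522, chromosome 16, 20629851 to 20645915, plus strand). GENCODE M21 places a second protein-coding gene over it on the same strand, so reads of the 2 genes may have been shared between them. Ece2 stood at 13.9, 15.3 and 13.6 CPM in the knockout and 16.1, 15.0 and 15.0 CPM in the control libraries. Knockout 2 lay above control 2 and control 3, so the groups overlapped. Ece2 was the 1 member with a negative log2 fold change, −0.11 (SE 0.093, 95% interval −0.33 to 0.11, adjusted p = 0.825 by edgeR).

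Ednra encodes the endothelin A receptor of vascular smooth muscle and mesenchyme (gene 13617, chromosome 8, 77663029 to 77724452, minus strand). It stood at 67.3, 79.7 and 81.9 CPM in knockout 1, 2 and 3 and at 65.4, 67.4 and 64.2 CPM in control 1, 2 and 3. Knockout 2 and 3 lay above every control library, while knockout 1 lay just under control 2, so the groups overlapped. The means were 76.3 ± 7.88 CPM in knockout skin against 65.7 ± 1.61 CPM in control skin (SD, n = 3). By edgeR's quasi-likelihood test the log2 fold change of 0.22 (SE 0.085, 95% interval 0.017 to 0.42, unadjusted p = 0.0372) did not pass after adjustment over all genes (adjusted p = 0.620 by edgeR). The largest fold inside the interval was 1.33. Without knockout 1 the log2 fold change was 0.30 (adjusted p = 0.253 by edgeR). Without both replicate 1 libraries it was also 0.30 (edgeR adjusted p = 0.130). It was lower, 0.16 without knockout 3 and 0.18 without knockout 2 (edgeR adjusted p = 0.669 and 0.913). With the posterior Hox score as a covariate it was 0.16 (edgeR adjusted p = 0.744). Adjusted p-values ran from 0.130 to 0.931 over 17 alternatives.

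Ednra was set against mural and smooth muscle markers, since those cells carry the A receptor. Of the 12 tested markers 1 rose, Pdgfrb, the receptor by which mural cells sense endothelial PDGF-B (log2 fold change 0.67, SE 0.072, adjusted p = 0.0330 by edgeR), and none fell. Its adjusted p was under 0.05 in 11 of 17 alternatives and reached 0.203 without knockout 2, where the log2 fold change was 0.69 (edgeR). It also missed the threshold without knockout 1, knockout 3, control 2 or control 3 and with the posterior Hox score (edgeR adjusted p = 0.0759, 0.121, 0.183, 0.119 and 0.180). At an unadjusted p under 0.05 there were 4 higher and 3 lower of the 12 (4.08% and 3.35% of all genes), and the pericyte gene Higd1b stood at 1.40 (SE 0.24, adjusted p = 0.108 by edgeR). The 3 lower genes were the contractile genes Cnn1, Myh11 and Tagln, named after their values were seen, at −1.37, −0.82 and −0.27 (SE 0.27, 0.20 and 0.096) with edgeR adjusted p = 0.156, 0.317 and 0.544. The list's other contractile genes, Acta2 and Mylk, stood at −0.065 and −0.023, with groups that overlapped. The summed level of the list was 998 to 1042 CPM in the knockout and 878 to 952 CPM in the control libraries, which did not overlap, while the list's mean log2 CPM did (5.44, 5.46 and 5.51 in the knockout, 5.45, 5.32 and 5.35 in control libraries). Knockout 3 was the highest library both in this sum and in Ednra, while within the groups the order of the sums otherwise differed from that of Ednra. The part of mural cell RNA in the Ednra values was not tested. Relative to the mean of this list within each library, Ednra stood at 0.64, 0.86 and 0.85 in knockout 1, 2 and 3 and 0.58, 0.76 and 0.66 in control 1, 2 and 3, a difference of 0.12 (exact two-sided permutation p = 0.3), and with the list's median in place of its mean the difference was −0.0345.

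Ednrb encodes the endothelin B receptor, which endothelial cells, melanoblasts and glia of peripheral nerve carry (gene 13618, chromosome 14, 103814615 to 103844508, minus strand). It stood at 73.6, 62.4 and 66.3 CPM in knockout 1, 2 and 3 and at 62.0, 47.3 and 58.2 CPM in control 1, 2 and 3. All knockout libraries lay above all control libraries, by a margin of less than 1 CPM between knockout 2 and control 1, as did the libraries of 7.03% of all genes tested. The means were 67.4 ± 5.65 CPM in knockout skin against 55.8 ± 7.62 CPM in control skin (SD, n = 3). By edgeR's quasi-likelihood test the log2 fold change of 0.27 (SE 0.11, 95% interval 0.0064 to 0.54, unadjusted p = 0.0459) did not pass after adjustment (adjusted p = 0.663 by edgeR), and the interval reached up to 1.45-fold. Leaving out control 2, the lowest library, brought the log2 fold change to 0.16 (adjusted p = 0.931 by edgeR), and leaving out control 1 brought it to 0.35 (adjusted p = 0.477), within adjusted p-values of 0.256 to 0.931 over 17 alternatives.

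Ednrb was set against melanocyte markers, since melanoblasts carry the B receptor. Of 13 tested melanocyte lineage genes 11 stood below 0 on the log2 fold change scale, at a median of −0.23, and none passed the adjusted threshold. Kit, the receptor of melanoblasts and mast cells, had an unadjusted edgeR p of 0.0253 (log2 fold change −0.28, SE 0.10, adjusted p = 0.552), and Gpr143, a melanosome protein, stood at 0.37 (SE 0.34, adjusted p = 0.837 by edgeR). The summed level of the list was 209 to 360 CPM in the knockout and 278 to 436 CPM in the control libraries, no tested marker was at 0 in any library, and the lowest summed level was in knockout 1, the library with the most Ednrb. Oca2, a melanosome transporter gene with too few reads to be tested, was at 0 in knockout 1 and control 1. Relative to the list, Ednrb stood at 3.25, 2.17 and 2.13 in knockout 1, 2 and 3 and 2.69, 1.79 and 1.75 in control 1, 2 and 3 on the log2 CPM scale, so both replicate 1 libraries were high, as they were low for hair follicle genes. The difference of 0.44 had an exact two-sided permutation p of 0.5 and was 0.073 without knockout 1.

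The other cells that can carry Ednrb were also measured. The 15 pan-endothelial genes had a median log2 fold change of 0.042, with 4 higher and 1 lower at an unadjusted p under 0.05 (4.08% and 3.35% of all genes) and none called. Emcn, a sialomucin of capillary and venous endothelium, stood at −0.52 (SE 0.097, adjusted p = 0.153 by edgeR) and Robo4, a receptor of stable endothelium, at 0.40 (SE 0.096, adjusted p = 0.271 by edgeR). Their summed level was 921 to 1048 CPM in knockout and 887 to 968 CPM in control. The 10 Schwann cell genes had a median of 0.036, with Gfra3, a glial cell line-derived neurotrophic factor family receptor, at 0.40 (SE 0.12, adjusted p = 0.445 by edgeR). Their summed level was 218 to 250.5 CPM in knockout and 231 to 244 CPM in control, and the ranges overlapped. The part of endothelial, melanocyte or Schwann cell RNA in the Ednrb values was not tested. Edn1 relative to the pan-endothelial list stood at −1.89 ± 0.26 in knockout and −2.12 ± 0.72 in control (SD, n = 3), a difference of 0.23 (exact two-sided permutation p = 0.9). Adjusted over the 5 comparisons with marker lists the exact permutation p-values were 0.833 to 0.9, and 3 against 3 libraries cannot go below 0.1 before adjustment.

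**Figure D2:**
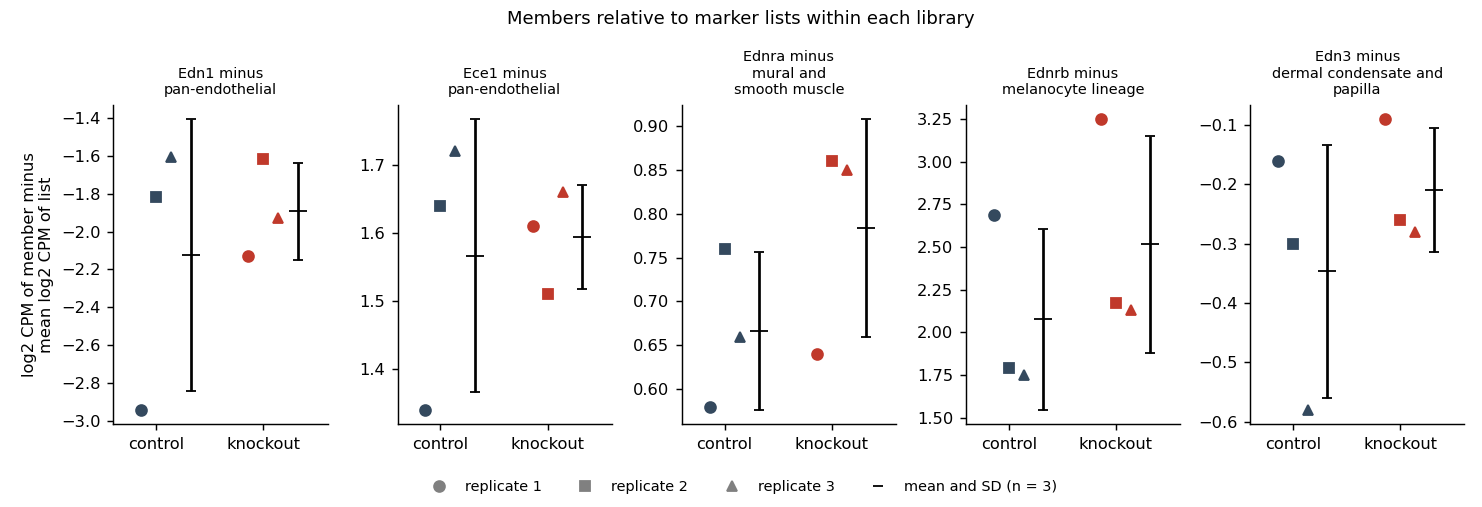
The log2 CPM of a member minus the mean log2 CPM of a marker list in the same library, for 5 member and list pairs, with the mean and SD of 3 libraries per group. The groups overlap in all 5 panels, and the replicate 1 libraries stand highest for Ednrb against melanocyte genes (3.25 and 2.69).

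The balance of the 2 receptors, Ednra over Ednrb per transcript length, was 1.04, 1.45 and 1.40 in knockout 1, 2 and 3 and 1.195, 1.61 and 1.25 in control 1, 2 and 3. Both groups covered a similar range, with the lowest ratio in knockout 1 and the highest in control 2.

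**Figure D3:**
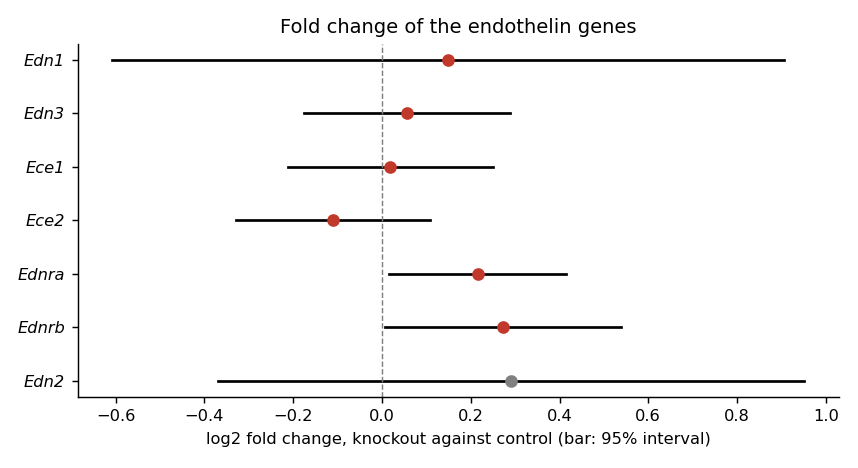
Log2 fold change of each member and of Edn2 (grey), knockout against control, with its 95% interval from the edgeR fit. The intervals of Ednra (0.017 to 0.42) and Ednrb (0.0064 to 0.54) lie just above 0 before any adjustment, and that of Edn1 (−0.61 to 0.91) is the widest among the members.

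The rest of the pathway also held no called gene. In 2 lists of 30 genes (ligand processing and peptide clearance, and receptor signalling) 27 were tested, of which edgeR called 0 at an adjusted p under 0.05 and 7 had an unadjusted p under 0.05, 4 higher and 3 lower (7.42% of all genes had one). The processing and clearance list had 5 positive and 3 negative log2 fold changes with a median of 0.16, and Ecel1, Mmel1 and Kel had too few reads to be tested, at most 16 in a library. Cma1, a mast cell chymase gene of this list, stood at 455 ± 13.97 CPM in knockout skin against 775 ± 116 CPM in control skin (SD, n = 3, log2 fold change −0.77, SE 0.11, adjusted p = 0.0678 by edgeR). All 7 tested genes of the mast cell list, which does not hold Cma1, were below 0 on the log2 fold change scale, at a median of −0.79, and the list's summed level of 1357 to 1416 CPM in knockout lay below the 1926 to 2748 CPM in control, and the part of mast cell RNA in the Cma1 value was not tested. Cpa3, a mast cell carboxypeptidase, and Mcpt4, a further mast cell chymase, led that list at −0.79 (SE 0.14) and at −1.0 (SE 0.20), and edgeR gave adjusted p = 0.109 and 0.222. Mme, the endopeptidase neprilysin that degrades endothelins, stood at 43.3 ± 7.43 against 31.0 ± 6.63 CPM (SD, n = 3, log2 fold change 0.48, SE 0.19, adjusted p = 0.626 by edgeR). Ctsa, a carboxypeptidase that also degrades endothelins, stood at 0.24 (SE 0.11, adjusted p = 0.680 by edgeR).

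Among the 19 signalling genes the median log2 fold change stood at 0.044, with 11 above and 8 below 0. Gnaq and Gna11, the subunits that couple endothelin receptors to phospholipase C, named after their values were seen, had log2 fold changes of 0.060 (SE 0.077) and of −0.011 (SE 0.065), and edgeR gave adjusted p = 0.890 and 0.981. Rgs4, which switches off such G proteins, stood at 7.42, 6.45 and 5.40 CPM in the knockout and 2.17, 1.93 and 3.16 CPM in the control libraries, without overlap (log2 fold change 1.40, SE 0.23, adjusted p = 0.0934 by edgeR). The phospholipase C genes Plcb4 and Plcb2 stood at 0.38 (SE 0.091) and at −0.60 (SE 0.16), and edgeR gave adjusted p = 0.272 and 0.361. Arrb1, an arrestin that takes activated receptors off the surface, stood at −0.34 (SE 0.089, adjusted p = 0.352 by edgeR), and Itpr2, a calcium release channel, at 0.25 (SE 0.10, adjusted p = 0.663 by edgeR).

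**Figure D4:**
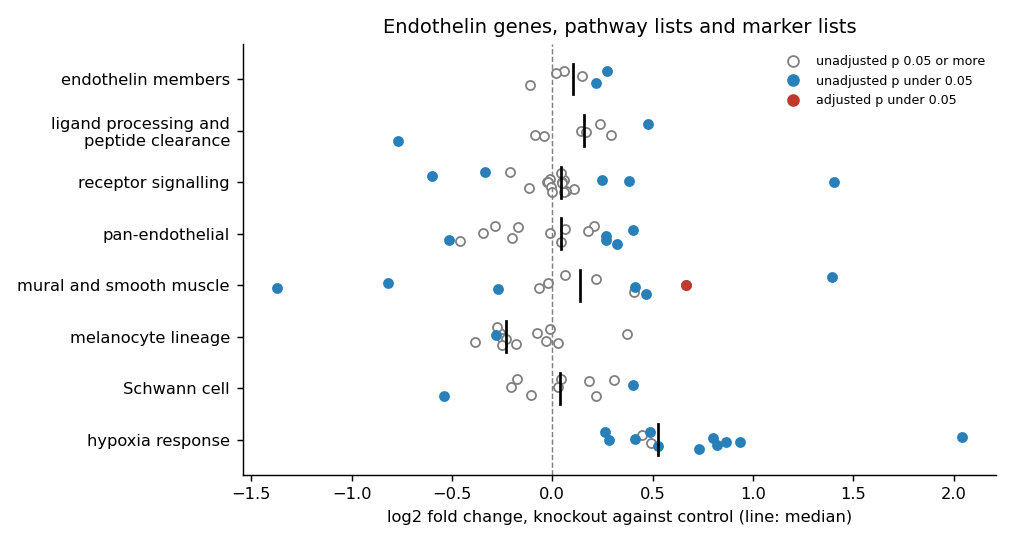
Log2 fold change of each tested gene of the endothelin set, the 2 pathway lists and 5 marker lists (points), with list medians as lines. Of these genes 1 passed the adjusted threshold, Pdgfrb at 0.67, and the hypoxia list has the highest median, 0.53.

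The remaining marker lists were checked for other cells of the skin, and none of their genes was called. The 10 keratinocyte genes, 7 above and 3 below 0, had a median log2 fold change of 0.085. Of these, Dsp stood at 0.29 (SE 0.16) and Lor at 0.64 (SE 0.40). Lor was highest in knockout 1, at 5058 CPM against 1529 to 2540 CPM in the other libraries. Of fibroblast genes, Lox stood at 0.68 and Dpt at −0.26, and of skeletal muscle genes, Myh3 at 0.29 and Mylpf at −0.13. Median log2 fold changes were 0.0072 for the 10 dermal fibroblast genes and −0.037 for the 10 skeletal muscle genes. They were −0.41 for 12 hair follicle genes (Hoxc13 at −0.52, SE 0.52, and Krt71 at −0.78, SE 1.55), −0.40 for 8 erythroid genes (Slc4a1 at −1.07 and Hbb-bt at −0.59, both highest in control 1 at 17.6 and 1304 CPM against at most 7.17 and 682 CPM elsewhere) and 0.44 for 7 posterior Hox genes (Hoxa11 at 2.43, SE 0.63, adjusted p = 0.335 by edgeR, and Hoxa9 at 0.37). Hoxa11 stood at 0.59, 0.15 and 0.049 CPM in control 1, 2 and 3, where 3 reads make 0.147 to 0.155 CPM. Summed keratinocyte levels, of interest because keratinocytes also make endothelin-1, were 26910 to 33030 CPM in the knockout and 20920 to 37790 CPM in the control libraries. The lowest sum was in control 1, the library lowest in Edn1. Among the knockout libraries the highest sum, 33030 CPM, was in knockout 1, the knockout library lowest in Edn1. The part of keratinocyte RNA in the Edn1 values was not tested.

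The genes whose pattern over the 6 libraries was most like each member were found by the root mean square difference between log2 CPM values centred on each gene's mean, among 13789 genes. Edn1, which varied most between libraries, had the fewest near neighbours, with 2 genes within 0.1 of it on this log2 scale, and its nearest were Tnk1 (0.0888), Aph1c (0.0978) and Foxd2 (0.104). Tnk1, a tyrosine kinase, stood at 19.9, 33.3 and 29.6 CPM in the knockout and 14.9, 29.8 and 32.5 CPM in the control libraries, low in both replicate 1 libraries like Edn1. Ednrb had 93 genes within 0.1, led by Il3ra (0.0166), the interleukin-3 receptor subunit, then Zfp811 (0.0381) and Mthfd1l (0.0452). Ednra had 422, led by Zfp874b, Kiz and Apbb2 (0.0384, 0.0384 and 0.0389). The flatter members had many more: Ece1 had 1199, led by Tpp1, Tmem268 and Eid2, Edn3 had 2055, led by Glcci1, Rif1 and Zfp719, and Ece2 had 2489, led by Alg1, Pigyl and Commd1. With a prior count of 0.5 in place of 2, all 18 of these genes were named again.

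**Figure D5:**
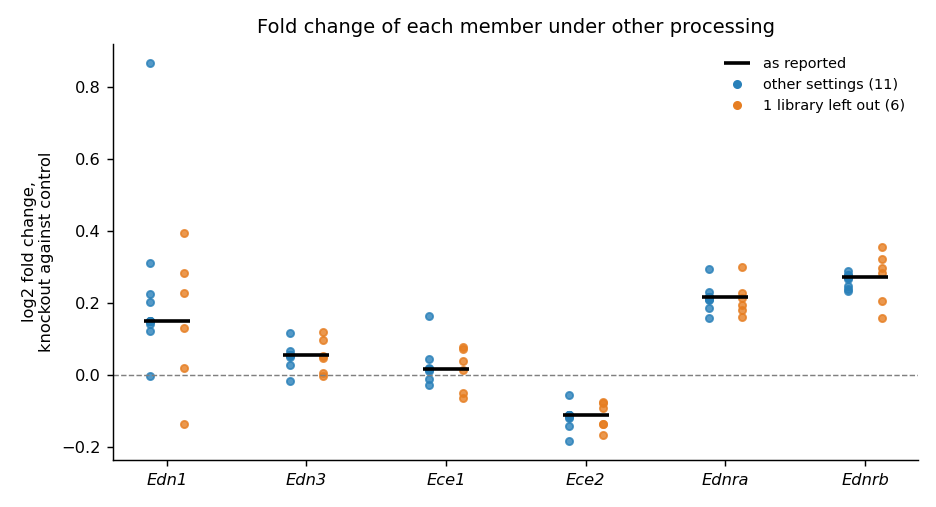
Log2 fold change of each member as reported (black bar), under 11 other settings (blue) and with 1 library left out (orange, 6 fits). Ednra and Ednrb stay above 0 and Ece2 below 0 in all of these fits, while Edn1 ranges from −0.14 to 0.87.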

How the data were processed

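RNA from the 6 skin samples was sequenced, and the authors deposited 1 table per sample with an estimated count per gene, which need not be whole (31.0% to 31.9% of a library's values were not, at a tolerance of 0.001). RSEM 1.2.12, Bowtie2 2.2.5, HISAT2 2.0.4 and GRCm38.p6 appear in the submitters' processing notes, without their roles. No source used here states whether counting was stranded, and opposite-strand genes overlap Edn1, Ece1 and Ednra in GENCODE M21. Estimated counts were rounded, genes were filtered by edgeR's filterByExpr (minimum count 10), scaled by TMM and fitted over all genes with edgeR 4.0.16 (robust quasi-likelihood test, Benjamini-Hochberg adjustment, 2 groups, no covariate) in R 4.3.3. DESeq2 1.42.0 and limma-voom (limma 3.58.1) were alternatives, beside scalings, filters, covariates and left-out libraries. Log2 CPM used a prior count of 2. Locations and promoter windows are RefSeq's for GRCm38.p6. Of the gene IDs 19001 of 19131 matched RefSeq.

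The 6 genes and the 16 gene lists were chosen with earlier results of these data known. Of the listed genes 177 of 184 were tested. Named were the members and Edn2, pathway genes with an unadjusted p under 0.05 (or the 3 with the smallest p), up to 2 genes of a marker list with the smallest p, and the 3 genes most like each member. The 5 differences from marker lists were tested by exact permutation. The scripts were tested on simulated data.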

Additional observations from a re-analysis of the deposited data

How the results depend on the processing

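None of the 6 members was called in any of 17 alternatives (102 member fits, adjusted p 0.130 to 0.9998). Ednra and Ednrb kept a positive and Ece2 a negative log2 fold change in all 17, and Ednra and Ednrb had an unadjusted p under 0.05 in 10 and 11 of them. Of the other members' values 8 changed sign. With 1 library left out, the log2 fold change ran from −0.14 (without control 1) to 0.39 for Edn1, from −0.0029 (without knockout 2) to 0.12 for Edn3, and from −0.064 (without knockout 3) to 0.079 for Ece1, which was also −0.050 without control 1. Without both replicate 1 libraries it was −0.0029 for Edn1 and −0.029 for Ece1, with upper-quartile scaling −0.012 for Ece1, and with the posterior Hox score −0.016 for Edn3. Relative to marker lists, Edn1 ran from −0.178 to 0.488 and Ece1 from −0.0845 to 0.109 with 1 library left out (both lowest without control 1, Ece1 also −0.0035 without knockout 3), and Ednra was −0.0345 with the list's median. The causes were not tested.

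The count of 24 called genes was 38 with no filter, 207 by DESeq2, 15 by limma-voom, 139 without both replicate 1 libraries, 116 with the hair follicle score and 5 with the posterior Hox score, and ran from 1 to 11 with 1 library left out. With the replicate number as a block it was 52, of which 22 were among the 24, and no member was called (lowest adjusted p 0.256). Same-numbered libraries correlated at 0.41, 0.04 and 0.27 in their deviations from the group means, and knockout 2 correlated best with control 3 (0.18), so the numbers were not taken as pairs. Depth limits Edn1 and Edn2 most, with 129 and 51 reads in their lowest libraries; counting error covers only part of the spread.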

Other observations

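Among 11 tested genes of flow response and vasodilator control, which oppose or accompany endothelin-1 in the vessel wall, none was called, 1 was higher and 4 were lower at an unadjusted p under 0.05 (7.42% of all genes in either direction), and the median log2 fold change was −0.0036. Nos3, the endothelial nitric oxide synthase, stood at 9.97 ± 0.892 CPM in knockout skin against 15.4 ± 1.23 CPM in control skin (SD, n = 3, log2 fold change −0.63, SE 0.11, adjusted p = 0.135 by edgeR). Npr1, the receptor of natriuretic peptides, stood at 16.8 ± 1.71 against 29.9 ± 6.51 CPM (SD, n = 3, log2 fold change −0.83, SE 0.17, adjusted p = 0.168 by edgeR). The summed level of the list was 470 to 717 CPM in knockout and 493 to 514 CPM in control. The highest sum was in knockout 1, where Klf4, named after its values were seen, stood at 462 CPM. In the other libraries Klf4 stood at 236 to 263 CPM.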
